A study of Homo sapiens with 12 samples.

Results

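MT-TH, the mitochondrial gene for the transfer RNA that carries histidine, was 1 of 22 mt-tRNAs whose 3′ ends were read by MPAT-Seq in 6 libraries of HEK293T cells, a human embryonic kidney line. It was selected on its own MPAT-Seq values, namely cytosine (C) in place of adenine (A) at the positions around the end of the tRNA and the point where the added stretches stopped. Those values are therefore given as a description, without a test, and each condition was 1 library. PDE12+/+ was the parental line and PDE12-/- a clone grown from a single cell, with frameshifts made in PDE12 by zinc finger nucleases. PDE12-/- + WT and PDE12-/- + E351A were that clone with doxycycline-inducible wild-type PDE12 or with PDE12 carrying a change at a putative metal-binding residue of its active site. PDE12+/+ + mtPAP and PDE12-/- + mtPAP overexpressed the mitochondrial poly(A) polymerase from the same kind of inducible cassette. All cells were at passages 10 to 15. A separate RNA-seq experiment on RNA of enriched mitochondria compared 3 PDE12+/+ with 3 PDE12-/- samples.

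A mitochondrial tRNA is cut out of a long precursor, and a CCA-adding enzyme then attaches CCA to its last encoded nucleotide, the discriminator base. The terminal A of CCA is where the amino acid is attached, so a tRNA with bases beyond CCA has no free acceptor end. mtPAP adds adenine tails to mitochondrial mRNAs and can add them to other mitochondrial RNAs, and PDE12 is a 3′ to 5′ exoribonuclease that removes adenines.

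MT-TH (ENSG00000210176.1) lies on the + strand at chrM:12138-12206 of GRCh38 and is 69 bases long. It follows MT-ND4, a gene for a complex I subunit, which ends at 12137, and adjoins MT-TS2, the gene for a serine tRNA, which starts at 12207. The gene is shown because its last base, in capitals, is the base from which all positions are counted.

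MT-TH gene: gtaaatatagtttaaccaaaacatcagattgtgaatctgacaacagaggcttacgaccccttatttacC

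The amplicon began with a primer over bases 2 to 27 of the gene and ended in a linker ligated to the 3′ end of the RNA, so the 42 gene bases after the primer and everything added to them were read. The discriminator base is written DB, +1, +2 and +3 are the C, C and A of CCA, and +4 is the first base beyond CCA. The deposited tables number DB as position 70 in all 6 libraries although the gene has 69 bases. The base read there was C in 95.2% to 99.1% of reads and C, C and A followed it, so that row was taken as DB. No other of the 22 mt-tRNA genes ended in C. The last base was A in 16, guanine in 4 and thymine in 1, and the leading base at DB in PDE12+/+ was the annotated base in each of these genes. In MT-TH the CC of CCA thus extends a run that starts at the discriminator base.

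The positions at which C was found are shown by 1 line for each library, DB to +12, with the leading base in lower case and a capital C at each position from +3 on where at least 10% of the reads had C. The lines summarise positions one by one and are not single reads. From +3 on the leading base was A at every position of every library.

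PDE12+/+: cccaaaaaaaaaa

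PDE12-/-: cccCCCaaaaaaa

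PDE12-/- + WT: cccaCCaaaaaaa

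PDE12-/- + E351A: cccaCaaaaaaaa

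PDE12+/+ + mtPAP: cccaCCaaaaaaa

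PDE12-/- + mtPAP: cccaCCaaaaaaa

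The 6 libraries held between 264522 and 758684 reads at +3 over the 22 mt-tRNAs, and MT-TH had 13589 to 98963 of them, 5.14% to 13% of a library. Intervals below are 95% Wilson intervals. They cover counting error only, since reads of a PCR product without molecular identifiers are not independent molecules. The names of the mtPAP libraries follow the deposited tables, whose title lines give the genotype opposite to that of the sample labels. Under the labels the values of these 2 libraries change places.

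Most MT-TH reads of control cells ended at the CCA, and most reads of PDE12-/- cells went beyond it. In PDE12+/+, 783 of 25189 reads at +3 reached +4, which is 3.11% (interval 2.90 to 3.33). In PDE12-/- it was 31140 of 34631 reads, 89.9% (89.6 to 90.2). With wild-type PDE12 the percentage was 34.6% (34.1 to 35.1), and with E351A it was 97.0% (96.9 to 97.1). PDE12+/+ + mtPAP had 9.05% (8.58 to 9.55) and PDE12-/- + mtPAP 91.8% (91.5 to 92.0). The order from low to high was therefore PDE12+/+, PDE12+/+ + mtPAP, PDE12-/- + WT, PDE12-/-, PDE12-/- + mtPAP and PDE12-/- + E351A, and no interval met its neighbour's. A spread between cultures could not be had from 1 library per condition. The percentage depends on what is counted as an extension, since reads with A at +4 alone were 49.2% of those at +3 in PDE12-/- and 52.4% with E351A. It is a share of reads, and the authors caution that it may differ from the share of molecules. Reverse transcriptase must pass modified bases, so MPAT assays might over-represent extended ends of unmodified molecules. The authors found no substantial loss of aminoacylation of this tRNA in PDE12-/-.

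These directions were common among mt-tRNAs. The percentage extended was higher in PDE12-/- than in PDE12+/+, with intervals apart, for 16 of 22 mt-tRNAs (72.7%), MT-TH included. It was lower with wild-type PDE12 than in PDE12-/- for 18 (81.8%), and higher with E351A than in PDE12-/- for 18 (81.8%). With mtPAP it was higher for 15 in PDE12+/+ (68.2%) and for 20 in PDE12-/- (90.9%). The rule that selected MT-TH used these libraries, so nothing is read from its place in the counts. Its level was near the bottom in PDE12+/+, the 19th highest of 22 with a median of 14.2% for the others, and second highest in PDE12-/-, where the median of the others was 26.5%. With E351A it was the highest of the 22, with a median of 59.1% for the others. It was 7th in PDE12-/- + mtPAP (median of the others 87.8%) and 5th with wild-type PDE12 (6.88%). In PDE12+/+ + mtPAP it was 16th (30.6%).

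**Figure D1:**
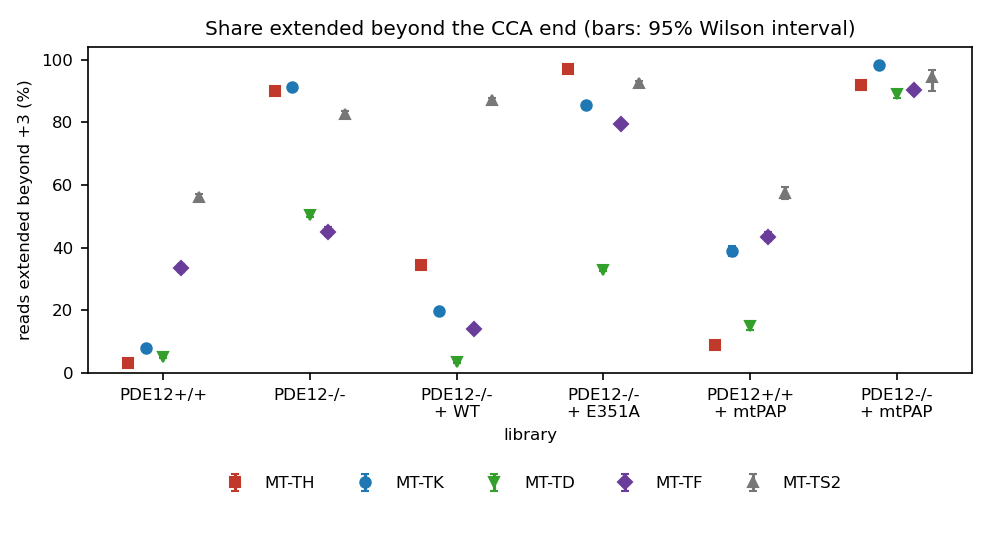
Percentage of reads at +3 that reached +4 (y axis) in the 6 libraries (x axis), for MT-TH, the 3 mt-tRNAs nearest to it over the 6 libraries (MT-TK, MT-TD and MT-TF) and its neighbour MT-TS2, with bars for 95% Wilson intervals. MT-TH is at 3.11% in PDE12+/+, at 89.9% in PDE12-/- and at 34.6% in PDE12-/- + WT, while MT-TS2 starts at 56.1% and is at 87.2% with wild-type PDE12.

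The mt-tRNA most like MT-TH in percentage extended was MT-TK, the lysine tRNA, with a mean absolute difference of 11.4 percentage points over the 6 libraries. MT-TD and MT-TF, the aspartate and phenylalanine tRNAs, followed at 24.2 and 24.9 points. MT-TK had 8.02% in PDE12+/+ against 91.1% in PDE12-/-, and 19.9% in PDE12-/- + WT and 85.6% in PDE12-/- + E351A. It parted most from MT-TH in PDE12+/+ + mtPAP, where it had 38.9% (37.3 to 40.4) and MT-TH 9.05%. The likeness is one of MPAT-Seq reads. By northern blotting the authors found the lysine tRNA more affected than the histidine tRNA, and they hold that the discrepancy is likely due to the MPAT assays. MT-TS2, which starts at the next base of the genome, had 56.1% in PDE12+/+ and 82.7% in PDE12-/-. With wild-type PDE12 MT-TS2 had 87.2% (86.8 to 87.6), so the 2 adjoining tRNAs lay far apart in that library.

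The first bases beyond +3 were a mixture of A and C. At +4, C made up 8.56% of 783 reads in PDE12+/+ (interval 6.79 to 10.7) and 45.1% of 31140 reads in PDE12-/- (44.6 to 45.7). It was 39.0% (38.2 to 39.8) with wild-type PDE12, 45.9% (45.5 to 46.2) with E351A, and 41.3% (40.9 to 41.8) in PDE12-/- + mtPAP. PDE12+/+ + mtPAP had 25.9% (23.5 to 28.4) of 1230 reads. The 4 libraries of the PDE12-/- clone thus lay between 39.0% and 45.9%, although their percentage extended ran from 34.6% to 97.0%. As a share of the reads at +3, C at +4 was 0.266% in PDE12+/+, 2.34% in PDE12+/+ + mtPAP, 13.5% with wild-type PDE12, 37.9% in PDE12-/- + mtPAP, 40.6% in PDE12-/- and 44.5% with E351A.

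The positions on either side of +4 set the PDE12-/- library apart from the other 5. At +3, where CCA has A, C was read in 32.7% of reads in PDE12-/- (32.2 to 33.2). The other libraries had 0.218% in PDE12+/+, 0.280% in PDE12+/+ + mtPAP, 3.65% with wild-type PDE12, 4.53% with E351A and 9.30% in PDE12-/- + mtPAP. At +5, C was in 46.0% of reads in PDE12-/- (45.4 to 46.5). The other libraries had 1.87% in PDE12+/+, 7.72% with E351A, 11.8% with wild-type PDE12, 12.6% in PDE12+/+ + mtPAP and 12.6% in PDE12-/- + mtPAP. As a share of the reads at DB, which counts unextended reads too, C at +5 was 40.9% in PDE12-/-, 10.8% in PDE12-/- + mtPAP, 7.40% with E351A, 2.97% with wild-type PDE12, 0.906% in PDE12+/+ + mtPAP and 0.043% in PDE12+/+, so E351A then came above wild-type PDE12 and the mtPAP libraries parted. PDE12-/- and PDE12-/- + E351A were therefore within 1 percentage point at +4 and far apart at +3 and +5, and a second culture of either was not analysed here.

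At +6 the C share was down to 2.64% in PDE12-/- and to 1.33% or less in the other 4 libraries with overexpressed proteins. From +7 on, 99.2% to 99.9% of bases were A in all libraries but PDE12+/+, which had 96.4%. In PDE12+/+ the C share at +6 was 6.49% (4.72 to 8.85) of 555 reads and at +7 6.20% (4.35 to 8.76) of 468 reads, and so was not gathered at +4 and +5. Guanine and thymine together made up 0.126% to 0.222% of the added bases in the other 5 libraries and 0.921% in PDE12+/+. Of all C beyond +3, 94.3% stood at +4 or +5 in PDE12-/- and 50.3% in PDE12+/+. An extended read held on average 0.964 C and 6.23 A in PDE12-/-, 0.562 C and 6.45 A with E351A, and 0.201 C and 4.20 A in PDE12+/+.

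**Figure D2:**
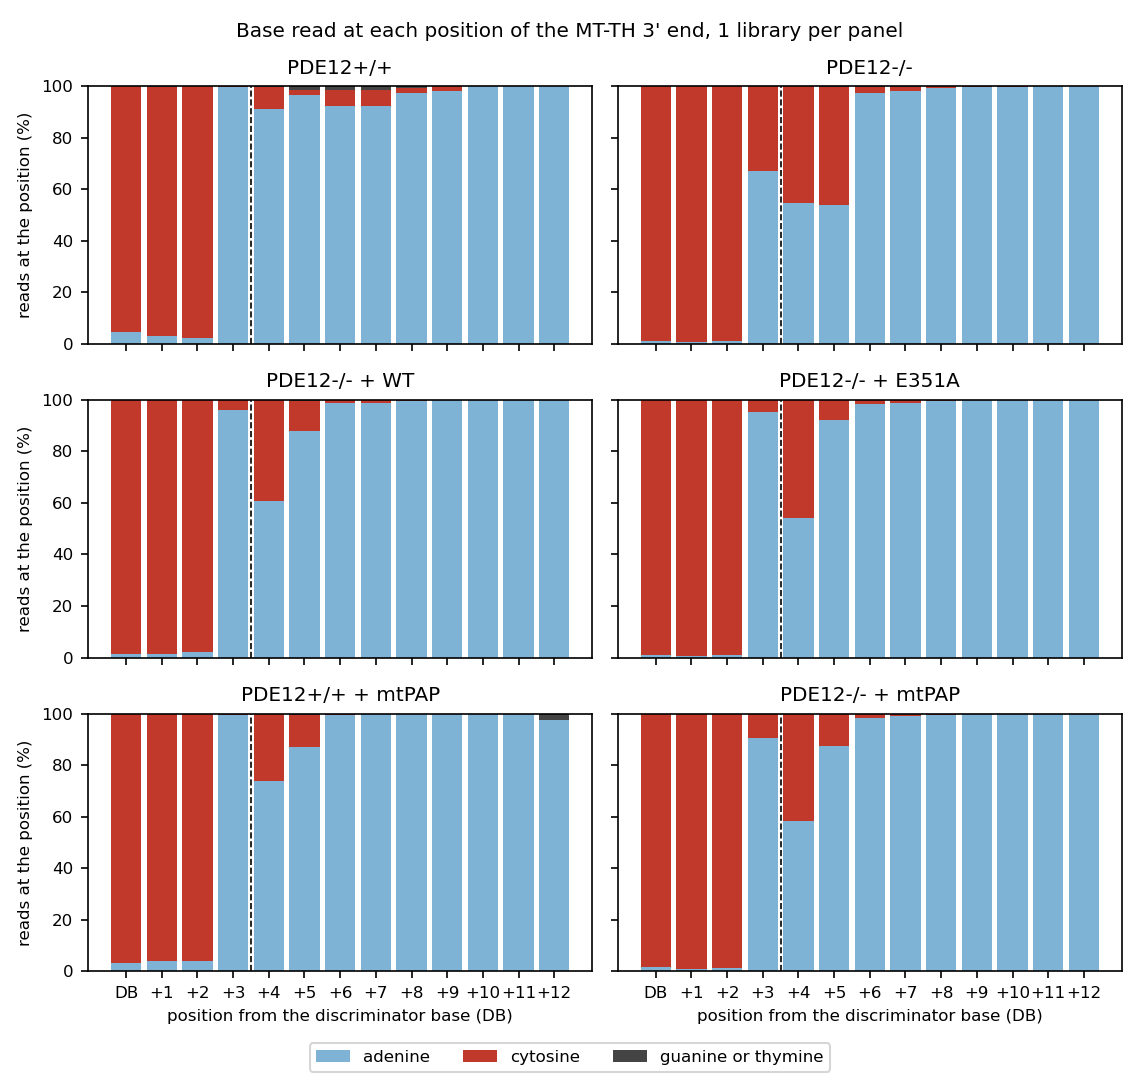
Share of reads with adenine, cytosine and either guanine or thymine (y axis, %) at each position from the discriminator base to +12 (x axis), 1 panel per library, with the dashed line at the end of CCA. Cytosine stands at +3, +4 and +5 in PDE12-/- (32.7%, 45.1% and 46.0%) and mainly at +4 with E351A (4.53%, 45.9% and 7.72%), and adenine fills the positions after +6.

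**Figure D3:**
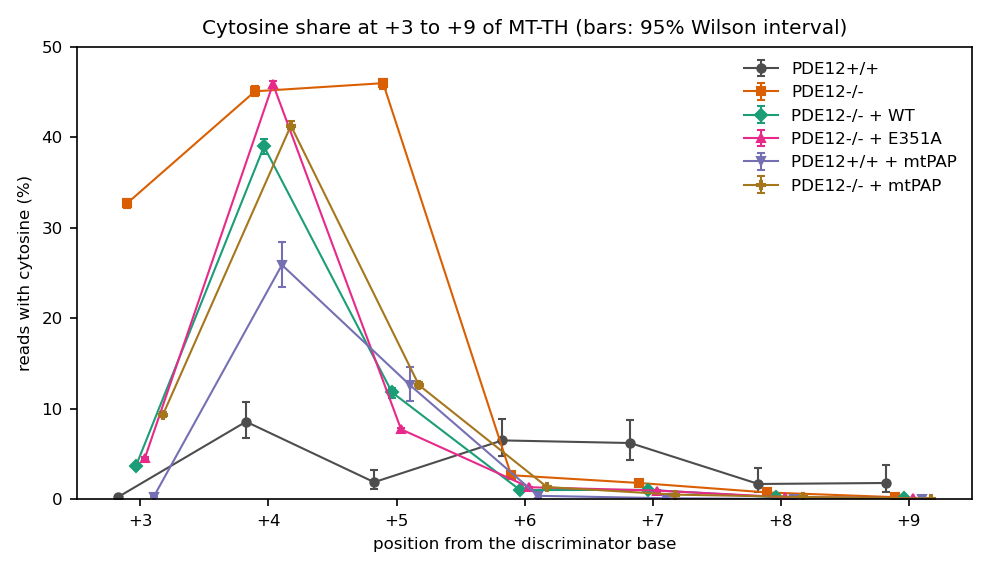
Percentage of MT-TH reads with cytosine (y axis) at +3 to +9 (x axis, points shifted sideways for clarity), 1 line per library, with 95% Wilson intervals. Lines of 5 libraries peak at +4, and the PDE12-/- line is high at +3, +4 and +5 and falls to 2.64% at +6.

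The tables give each position apart and not whole reads, but the counts set limits on what a read can have held. In PDE12-/-, 11311 reads had C at +3 and 3491 reads ended there, so at least 7820 reads with C at +3 went on to +4. Reads with C at +3 were thus between 25.1% and 36.3% of the extended reads. Whether such reads lacked the A of CCA or held it further on cannot be told from counts per position. With E351A the same share was between 1.59% and 4.67%, in PDE12-/- + mtPAP between 1.17% and 10.1%, and with wild-type PDE12 at most 10.6%.

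In the reverse direction, C at +4 must have followed an A at +3 in many reads. This held for at least 89.5% of the reads with C at +4 with E351A, 74.8% in PDE12-/- + mtPAP, 71.7% with wild-type PDE12 and 79.2% in PDE12+/+ + mtPAP. In PDE12-/- the lower limit was 19.1%. In these reads A at +3 was followed by C, and the bases they had at +1 and +2 are not known.

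Runs of C over both +4 and +5 were limited in the same way. With E351A at least 83.3% of the reads with C at +4 had another base or an end at +5, and with wild-type PDE12 and in PDE12-/- + mtPAP at least 70.2% and 69.8% did. In PDE12-/- the counts at +4 and +5, 14058 and 14238, set no such limit. Reads with C at +4 or +5 were between 45.9% and 53.5% of the extended reads with E351A and between 45.7% and 90.9% in PDE12-/-. At least 46.5% of the extended reads with E351A, 46.2% in PDE12-/- + mtPAP and 49.4% with wild-type PDE12 therefore had C at neither position.

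The 3′ ends short of a complete CCA also differed among libraries. As a share of the reads at DB, 9.70% ended before +3 in PDE12+/+ and 16.3% in PDE12+/+ + mtPAP. In PDE12-/- it was 0.454% and with E351A 0.271%, the lowest of the 22 mt-tRNAs in the latter library. With wild-type PDE12 it was 26.1%, of which 11.8% ended at DB, 7.87% at +1 and 6.47% at +2. PDE12-/- + mtPAP had 5.98%, and there 5.31% ended at +2, after CC, against 0.0920% in PDE12-/-. For ends at +2 the median of the other mt-tRNAs was 7.68% in PDE12-/- + mtPAP and 1.44% in PDE12-/-. MT-TH lay below that median in both libraries. Ends at +3 were 87.5% of the reads at DB in PDE12+/+, 76.2% in PDE12+/+ + mtPAP, 48.3% with wild-type PDE12, 10.0% in PDE12-/-, 7.73% in PDE12-/- + mtPAP and 2.98% with E351A. The shares of ends before +3 were also large for other mt-tRNAs with wild-type PDE12, with a median of 38.7%, which was above the MT-TH value.

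As far as the alignment covered them, added stretches of MT-TH were short and of similar length wherever they were common. Longer stretches that the alignment may have left out would not be counted in the lengths below. The median was 5 nt in PDE12+/+, 8 nt with wild-type PDE12 and 7 nt in the other 4 libraries, and the most frequent length was 8 nt in all but PDE12+/+, where it was 6 nt. In PDE12-/-, 33.9% of the extended reads ended after 7 nt and 45.8% after 8 nt, and with E351A 30.3% and 45.6%. Lengths of 6 to 8 nt made up 90.1% of extended reads in PDE12-/- and 42.0% in PDE12+/+. Lengths of 1 to 3 nt made up 40.2% in PDE12+/+, 11.2% in PDE12+/+ + mtPAP and 1.87% in PDE12-/-. Reads at +13 numbered 1 and 2 in the 2 mtPAP libraries and 0 in the others.

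For MT-TH the last position covered by over 1% of extended reads was +12 in 6 of 6 libraries. It was the same in all 6 libraries for 15 of the 22 mt-tRNAs, such as +10 for MT-TS2, whose gene has 59 bases, and +13 for MT-TL1, the leucine tRNA of 75 bases. For the other 7 it differed among libraries, as for MT-TL2, the other leucine tRNA, with +8 to +11. In 126 of 132 tables (95.5%) it lay between +10 and +13. Reads were aligned by the authors to uncalled bases placed after each gene. The last position was set beside the highest one at which positions after DB made up at most 15% of gene and added positions together. For MT-TH that was +12, its last position in 6 of 6 libraries. Over all mt-tRNAs, 87 of 132 tables (65.9%) stopped at this limit, 45 below it and 0 above it. This limit counts the whole gene. Reads held only the part of the gene after the primer, so it is not a limit worked out for the reads themselves. Whether the alignment set the lengths was not tested.

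**Figure D4:**
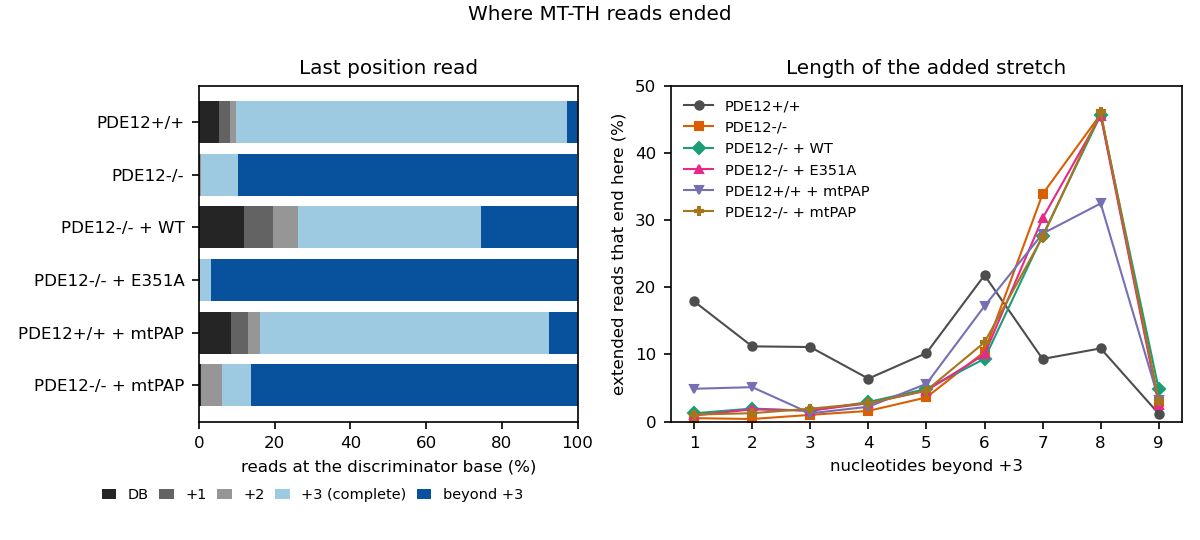
Left, last position read as a percentage of the reads at the discriminator base (x axis) for each library (y axis). Right, percentage of extended reads (y axis) that ended after 1 to 9 nt beyond +3 (x axis). The PDE12+/+ bar is mainly complete ends (87.5%) and the E351A bar mainly extended reads, and in 5 libraries the lengths peak at 8 nt.

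Among the mt-tRNAs, MT-TH had the highest C share at +4 in the 5 libraries other than PDE12+/+. Only mt-tRNAs with at least 100 reads at the position were compared. In PDE12-/- 8 of 19 mt-tRNAs were above 10% C at +4 (42.1%). At +5 it was 3 of 19 (15.8%), and at +3 1 of 21 (4.76%), which was MT-TH itself. In every other library another mt-tRNA was above MT-TH at +3. MT-TC, the cysteine tRNA, had 13.3% against 4.53% with E351A and 11.6% against 9.30% in PDE12-/- + mtPAP. MT-TI, the isoleucine tRNA, had 9.55% against 3.65% with wild-type PDE12. At +5 MT-TH was 7th of 18 in PDE12+/+ and 3rd of 17 in PDE12+/+ + mtPAP, and the highest elsewhere. The rule used these values too. MT-TW, the tryptophan tRNA, was the next highest at +4 in PDE12-/- with 26.8% (21.8 to 32.5) of 261 reads, followed by MT-TD with 21.2% (20.5 to 21.8) of 16530 reads and MT-TY, the tyrosine tRNA, with 16.7% (13 to 21.2) of 317 reads. MT-TW also had C at +5, in 20% of reads, while MT-TD had 4.86% and MT-TY 0.635%.

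MT-TK, with 91.1% of its reads extended in PDE12-/-, had there 7.48% C at +4 and 0.357% at +5, and MT-TS2 had 1.43% and 0.174%. In PDE12-/- + mtPAP the gap was wider, with 41.3% for MT-TH, 6.28% for the next highest (MT-TV, the valine tRNA) and 0.519% for MT-TK. MT-TW, MT-TD and MT-TY were at 3.55%, 2.13% and 0.922% there. In PDE12+/+ the order was another, with MT-TH the 7th of 21 at 8.56% and MT-TD the highest at 27.5%. MT-TH held 57.7% of all C read at +4 in PDE12-/- with 20.1% of the reads at that position. With wild-type PDE12 it held 81.0% of the C with 24.1% of the reads, and in PDE12-/- + mtPAP 81.1% with 17.0%.

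**Figure D5:**
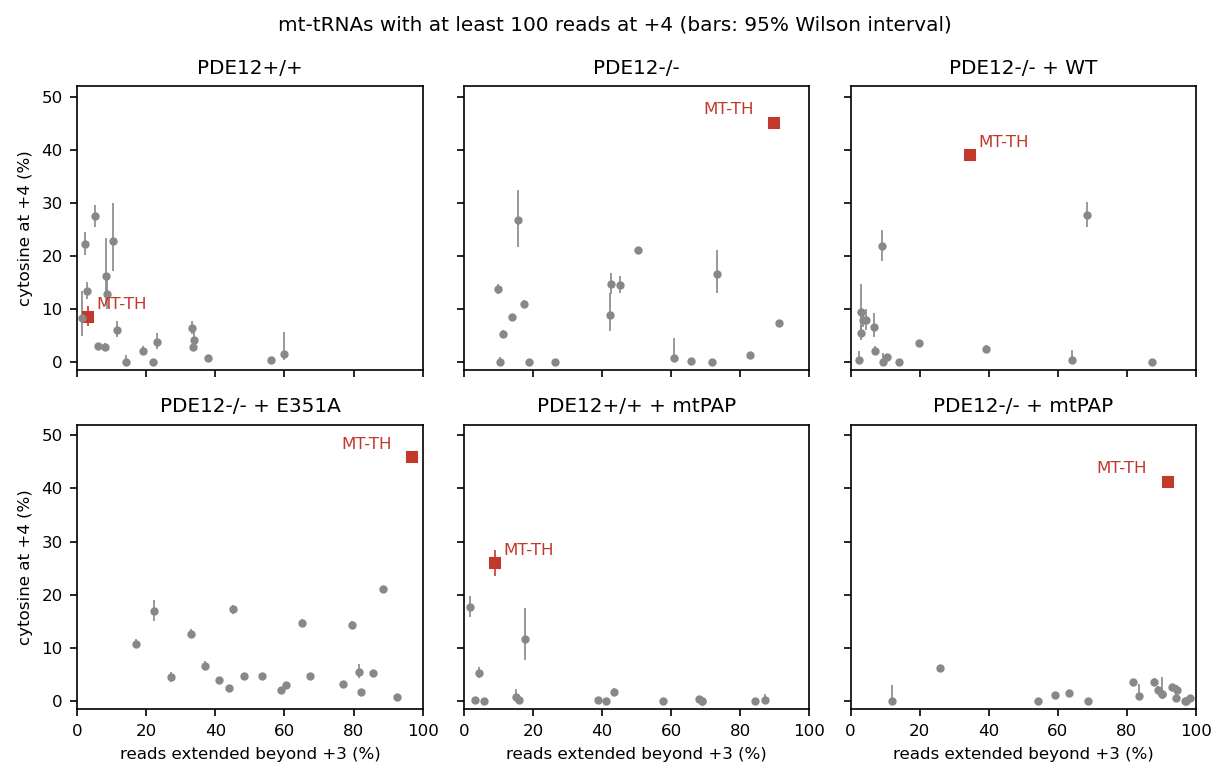
Cytosine at +4 (y axis, %) against the percentage of reads extended beyond +3 (x axis) for each mt-tRNA with at least 100 reads at +4, 1 panel per library, with 95% Wilson intervals for cytosine. MT-TH (square) lies above all other mt-tRNAs in 5 panels, and in PDE12+/+ it lies among them at 8.56%.

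A in place of C was also read at DB, +1 and +2. It was read at DB in 4.67% of reads in PDE12+/+ and 3.08% in PDE12+/+ + mtPAP, and in 0.834% to 1.47% in the 4 libraries of the PDE12-/- clone. A at +1 was read in 3.02% in PDE12+/+ and 3.85% in PDE12+/+ + mtPAP, and in 0.627% to 1.46% in those 4. A at +2 ran from 0.889% with E351A to 4.09% in PDE12+/+ + mtPAP. In both PDE12+/+ libraries these shares were above that of C at +3. The base that follows the gene in the genome, the first base of MT-TS2, is guanine. Guanine at +1 was read in 49 of 26408 reads in PDE12+/+ (0.19%) and 78 of 45975 in PDE12-/- + mtPAP (0.17%), and in 1 to 6 reads in the other libraries. In these tables, reads that ran on from MT-TH into MT-TS2 can be no more than these.

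The RNA-seq counts are a readout that the selection did not use, and they hold little of MT-TH. Sense counts of MT-TH were 1, 2 and 2 in the PDE12+/+ samples and 1, 0 and 5 in the PDE12-/- samples, out of 36338 to 104708 counts of 35 mitochondrial genes per sample. The groups overlapped. The difference, PDE12-/- minus PDE12+/+, was -0.14 on the log2 scale (SE 0.94; adjusted p = 1, edgeR quasi-likelihood test, 70 features), so a change of the amount of MT-TH was not detectable at this depth. Antisense counts of MT-TH were 8, 11 and 22 against 16, 10 and 16, with a difference of -0.36 (SE 0.49; adjusted p = 0.958, edgeR). Sense counts of the neighbour MT-ND4 were 902, 2733 and 3406 in PDE12+/+ and 2384, 3214 and 4401 in PDE12-/-, with a difference of 0.22 (SE 0.34; adjusted p = 0.966, edgeR). Of the 70 features, 0 (0%) passed the threshold in the edgeR fit, with 5 at an unadjusted p below 0.05, and 0 passed in DESeq2, with 3 unadjusted. With the replicate number as a block the MT-TH difference was -0.17 (SE 1.04; adjusted p = 1, edgeR), and 4 other features were called. The RNA-seq differences are relative to the other mitochondrial RNA counted in a sample, and RNA per cell was not measured. The percentages above are shares of MT-TH reads and not amounts of it.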

How the data were processed

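MPAT-Seq was done on 6 libraries, 1 per condition, and RNA-seq on 3 samples per PDE12 genotype. For MPAT-Seq the authors ligated a linker to 3′ ends, amplified each mt-tRNA with a primer of its own, removed primers with cutadapt, aligned reads with Bowtie2 to GRCh38 with uncalled bases after each mt-tRNA, and deposited whole-number counts of reads and of each base per position. The labels call these libraries resequenced after circularisation. For RNA-seq the authors trimmed with Trim Galore, aligned with Bowtie2, removed mt-rRNA reads, parted strands with SAMtools and deposited raw counts per gene and strand. Tool versions are not given in the sources used here.

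Each deposited MPAT-Seq table was identical to 1 sheet of the study's source data, which also gave the genotypes of the mtPAP libraries. The percentage extended was reads at +4 over reads at +3. The floor is 3 reads, 0.00303% to 0.0221% of the MT-TH reads at +3. Shares and Wilson intervals came from SciPy 1.17.1 in Python 3.11.15. In the tables of other mt-tRNAs, 1 printed under the name of MT-TT was read as MT-TD by its position number, MT-TY was shifted by 1 position in 3 libraries, and C of MT-TQ in PDE12-/- was computed from the total and the other 3 bases. Sequences came from GRCh38 and the study's oligonucleotide list, and coordinates from GENCODE.

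RNA-seq counts were made sense and antisense with the gene's strand (forward is sense for MT-TH) and fitted with edgeR 4.0.16 (R 4.3.3; TMM, common dispersion, quasi-likelihood test, genotype alone, Benjamini-Hochberg over 70 features, threshold 0.05). The SE is the size of the log2 difference over the root of F. The fit was tested on 20 simulations of the 70 features with 10 of them changed 4-fold. Of the changed features 97% were recovered, and 1.5% of the unchanged were called. Changed features were drawn from those with an expected count of at least 10. MT-TH sense had lower counts, so the recovery does not cover it. Nothing in the labels says that samples came from separate cultures, so p-values measure the spread between these samples. Deviations of same-numbered samples of the 2 genotypes correlated at 0.613, 0.25 and 0.345 over 37 features, so the numbers were taken to pair the samples.

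Named mt-tRNAs were, by rule, MT-TH, the 3 nearest to it in percentage extended over the 6 libraries, the 3 others with the highest C share at +4 in PDE12-/-, MT-TK, MT-TS2 and the neighbour MT-ND4. MT-TL1, MT-TL2, MT-TV, MT-TC and MT-TI were named after their values were seen. MT-TH and these lists were chosen with earlier results of these data known. Alternatives were other numerators and denominators, the mtPAP libraries by their labels, and for RNA-seq the replicate block, DESeq2 1.42.0, no TMM scaling, a minimum of 10 counts per feature in all samples, and leaving out each sample. The transcript of PDE12 itself was not analysed here.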

Additional observations from a re-analysis of the deposited data

How the results depend on the processing

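The order of PDE12+/+ below PDE12-/- + WT below PDE12-/- in percentage extended was kept under each numerator and denominator tried, and the values moved beyond the counting intervals as follows. With reads at the discriminator base as denominator the percentage extended was 2.81 in PDE12+/+, 89.5 in PDE12-/-, 25.6 in PDE12-/- + WT, 96.8 in PDE12-/- + E351A, 7.58 in PDE12+/+ + mtPAP and 86.3 in PDE12-/- + mtPAP, so that PDE12-/- + mtPAP came below PDE12-/-. With A alone at +4 it was 2.83, 49.2, 21, 52.4, 6.70 and 53.7 in the same order, so that PDE12-/- + mtPAP came above E351A. With reads at +5 it was 2.55 in PDE12+/+, 89.5 in PDE12-/-, 96.1 with E351A and 90.8 in PDE12-/- + mtPAP, and with reads at +6 it was 2.20, 89.1, 33.5, 94.4, 8.15 and 89.7 in the 6 libraries. Over reads with A at +3 alone it was 134 in PDE12-/-, 36 in PDE12-/- + WT, 102 in PDE12-/- + E351A and 101 in PDE12-/- + mtPAP. Values above 100 arise because reads without A at +3 stay in the numerator. Over reads at the discriminator base, the C share at +3 was 2.70 in PDE12-/- + WT and 8.75 in PDE12-/- + mtPAP and stayed within its interval in the other 4 libraries, and that at +5 moved in all 6. Over reads at +3, the C share at +4 was 0.266, 40.6, 13.5, 44.5, 2.34 and 37.9. With the genotypes of the labels, PDE12+/+ + mtPAP had 91.8% extended and 41.3% C at +4, and PDE12-/- + mtPAP had 9.05% and 25.9%. The median length with wild-type PDE12 was 7 nt without the reads that end at +12.

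The RNA-seq difference of MT-TH had no stable sign. It was 0.14 with library totals, where single features moved up by a median of 0.27 from their values with TMM. When single samples were left out the MT-TH difference ran from -1.77 to 0.30. It turned positive without PDE12+/+ replicate 3, PDE12-/- replicate 1 or PDE12-/- replicate 2. With at least 10 counts in every sample MT-TH was not tested. With the replicate block, which the main fit left out, 4 features passed the threshold in place of 0. MT-ND2 sense was higher, and MT-TN antisense, MT-CO1 sense and MT-CO2 sense were lower. With library totals 2 passed (MT-ND2 and MT-ATP6 sense, both higher). These were named after their values were seen. Leaving out single samples gave 0 in each case.

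Counts of 0 to 5 per sample limit the RNA-seq of MT-TH, and 1 library per condition leaves the spread between cultures unknown for MPAT-Seq.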
